A study of Mus musculus with 4 samples.

Results

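The enzymes that build and sulfate heparan sulfate, chondroitin and dermatan sulfate, keratan sulfate and the related HNK-1 glycan were followed in cultured mouse astrocytes. They comprised 52 genes, all found by symbol among the 55421 genes listed in the deposited counts. The family was taken because 1 of its genes, Chst1, was among the largest rises, so the Chst1 values below are a description without a test. The other 51 enzymes entered by their function.

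The astrocytes had been derived in culture from C57BL/6J neural stem cells in medium with serum. All had been infected with a lentivirus, which carried a control short hairpin RNA (shRNA) in 2 libraries and an shRNA against Phf8, the gene of a histone demethylase, in the other 2. The sources used here do not give the number of hairpin sequences, the age of the donor animals or the time after infection. Nor do they say whether the replicates came from separate cultures, so a p-value covers just the spread among these libraries, which may be technical. RNA was sequenced after ribosomal RNA depletion, to 36839530 to 44724759 reads on genes per library.

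Sulfated glycosaminoglycans are long sugar chains on proteoglycan core proteins at the cell surface and in the matrix. Chains are started on a short linkage region, extended by polymerases and then modified by sulfotransferases, which take sulfate from the donor PAPS (3'-phosphoadenosine 5'-phosphosulfate). The positions of the sulfates set which growth factors and receptors a chain binds, and in the nervous system chondroitin sulfate chains of astrocytes are known for limiting axon growth.

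Levels are CPM, a gene's reads relative to the depth of its library, after TMM scaling, edgeR's trimmed-mean library factors, and levels of different genes are compared only per kilobase of exon (RPKM). Every fold change sets Phf8 shRNA against control shRNA. Apart from Chst1, a gene is said to rise or fall where edgeR's quasi-likelihood test gave a Benjamini-Hochberg adjusted p under 0.05 over all genes tested. Phf8 itself stood at 53.3 and 53.0 CPM in the control and at 44.3 and 42.3 CPM in the Phf8 shRNA libraries, a log2 fold change of -0.30 ± 0.06 (SE, adjusted p = 1.72e-06). That is a 1.23-fold fall, and the median absolute log2 fold change over all genes tested was 0.32.

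The promoter windows of 6 enzymes on which the results turn are shown, 3 at higher and 3 at lower level with Phf8 shRNA. Each is the 250 bases before a transcription start in RefSeq (GRCm38.p6, the same assembly as mm10), written 5′ to 3′ on the strand of the gene, with CpG dinucleotides in capitals. The windows are Chst1 (chr2:92600867-92601116, plus strand), Chst3 (chr10:60219261-60219510, minus strand), Ust (chr10:8518826-8519075, minus strand), Papss2 (chr19:32595465-32595714, plus strand), Chst11 (chr10:82985247-82985496, plus strand) and Sulf2 (chr2:166155684-166155933, minus strand). The start used for Chst1 lies 1410 bases inside the deposited gene, and none of the 6 windows touches an exon of GENCODE M21.
Chst1: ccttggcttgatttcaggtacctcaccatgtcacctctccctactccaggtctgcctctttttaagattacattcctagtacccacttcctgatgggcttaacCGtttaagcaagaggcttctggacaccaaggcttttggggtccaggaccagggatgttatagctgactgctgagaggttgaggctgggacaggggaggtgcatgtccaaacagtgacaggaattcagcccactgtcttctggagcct
Chst3: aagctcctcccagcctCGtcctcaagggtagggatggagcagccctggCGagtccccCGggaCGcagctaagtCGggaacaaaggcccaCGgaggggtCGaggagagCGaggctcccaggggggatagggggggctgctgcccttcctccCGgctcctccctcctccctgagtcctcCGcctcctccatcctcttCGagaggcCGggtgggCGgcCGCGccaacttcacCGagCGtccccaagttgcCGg
Ust: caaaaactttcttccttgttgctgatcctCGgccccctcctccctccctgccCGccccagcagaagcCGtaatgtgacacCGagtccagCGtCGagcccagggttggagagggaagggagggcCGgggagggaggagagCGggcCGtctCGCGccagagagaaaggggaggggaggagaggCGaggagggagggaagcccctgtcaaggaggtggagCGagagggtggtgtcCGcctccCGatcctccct
Papss2: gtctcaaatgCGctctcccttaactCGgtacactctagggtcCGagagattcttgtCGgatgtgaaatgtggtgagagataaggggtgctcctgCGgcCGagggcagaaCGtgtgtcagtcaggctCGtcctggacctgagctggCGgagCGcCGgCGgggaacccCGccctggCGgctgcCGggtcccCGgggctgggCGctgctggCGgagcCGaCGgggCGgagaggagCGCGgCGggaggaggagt
Chst11: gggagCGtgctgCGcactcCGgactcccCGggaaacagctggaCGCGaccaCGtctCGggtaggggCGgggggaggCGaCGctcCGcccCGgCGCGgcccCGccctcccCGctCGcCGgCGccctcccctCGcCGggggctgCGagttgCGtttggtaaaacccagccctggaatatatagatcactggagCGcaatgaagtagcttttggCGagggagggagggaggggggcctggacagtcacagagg
Sulf2: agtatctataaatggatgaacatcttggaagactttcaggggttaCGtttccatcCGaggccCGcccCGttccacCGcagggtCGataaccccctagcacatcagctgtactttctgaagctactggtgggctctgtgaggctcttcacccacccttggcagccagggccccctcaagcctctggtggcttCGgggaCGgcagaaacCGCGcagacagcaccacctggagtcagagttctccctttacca

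The Chst1 window differed from the other 5 in base composition. It held 1 CpG, with an observed over expected CpG ratio of 0.06, whereas Chst3, Ust, Papss2, Chst11 and Sulf2 held 18, 15, 24, 26 and 10. Of the 52 enzymes, 42 had such a window, and B3gat2, Chst9, Chsy3, Csgalnact1, Ext1, Extl3, Ndst1, Ndst4, Sulf1 and Xylt1 had none in the table. The start used lies 110844 bases from the deposited gene start for Hs3st1, 18376 for Ndst3, 17834 for B3gat1 and 11303 for Extl1. The windows of Chst15, Dse and Hs6st2 lie wholly in exons of GENCODE M21, and several others touch an exon in part. The observed over expected CpG ratio was at least 0.6 in 25 of the 42 windows (59.5%), in 62.7% of 12211 windows of genes tested and in 41.4% of all 20537 windows. The GC box GGGCGG, searched on both strands, was found in 30 of the 42 windows (71.4%), in 56.2% of windows of genes tested and in 39.4% of all windows. The AP-1 motif TGANTCA was found in 1 of the 42, that of Csgalnact2, in 4.3% of windows of genes tested and in 6.43% of all windows. The TEAD motif GGAATG was found in 6 of the 42, Chst1 among them, in 11% of windows of genes tested and in 12.1% of all windows. The E-box CACGTG was found in 4 of the 42, in 7.89% of windows of genes tested and in 6.4% of all windows. TATAAA was found in 2 of the 42, those of Sulf2 and Hs6st2, in 6.67% of windows of genes tested and in 12.2% of all windows. These matches describe letters in a window and no binding was measured.

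Members of the family lay on both sides of the comparison. Of the 51 enzymes other than Chst1, 45 passed the filter on low counts, of which 14 rose, 22 fell and 9 did not pass the test. Of all 21042 genes tested, 52.1% were called, 24.8% higher and 27.3% lower, and of the protein-coding ones 60.4%. Higher genes made up 47.7% of all calls, 58% with upper-quartile scaling and 40.3% with the library size alone. A change of at least 2-fold was found upward in 6 of the 45 and downward in 8 of them, against 5.5% and 8.71% of all genes tested, and of these enzymes Extl1 was the only one that builds rather than modifies a chain or supplies sulfate. The median log2 fold change of the 45 was -0.07, beside 0.01 for all genes tested and -0.04 for the protein-coding ones. With upper-quartile scaling it turned to 0.02, beside 0.10 for all genes tested. The libraries of the groups did not overlap in 39 of the 45, beside 73.9% of all genes tested. The plot of levels by library shows the enzymes at a mean of at least 1 CPM that differed by at least 2-fold in groups that do not overlap.

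**Figure D1:**
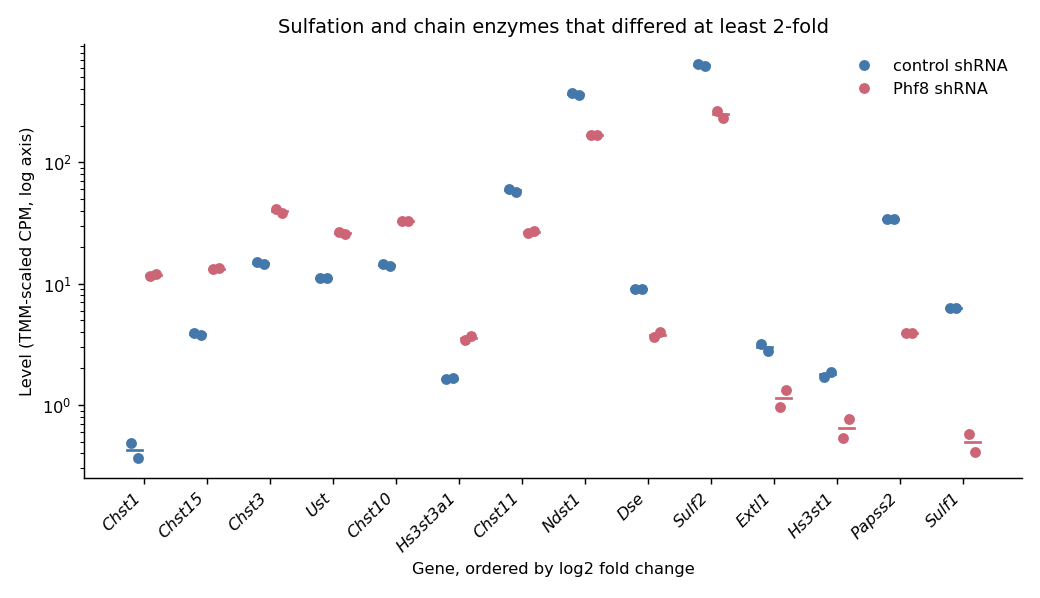
Levels in TMM-scaled CPM (log axis) of Chst1 and 13 other enzymes, ordered by log2 fold change, with a point for each library and a bar for the group mean of n = 2. The 13 were taken because they passed the test, differed at least 2-fold, had a mean of at least 1 CPM and had groups that do not overlap. Chst1 stood at 0.367 to 0.485 CPM in control and 11.59 to 12.01 CPM in Phf8 shRNA libraries.

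The calls of the smaller changes depend on the spread taken between replicates, which was low (common biological coefficient of variation 3.64%). With that coefficient set to 0.2, 15.7% of all genes tested were called, and 16 of the 36 calls remained. These were Hs3st3a1, Hs3st5, Chst3, Chst15, Ust and Chst10, which rose, and Extl1, Ndst1, Hs3st1, Hs3st3b1, Sulf1, Sulf2, Chst11, Dse, Dsel and Papss2, which fell.

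**Figure D2:**
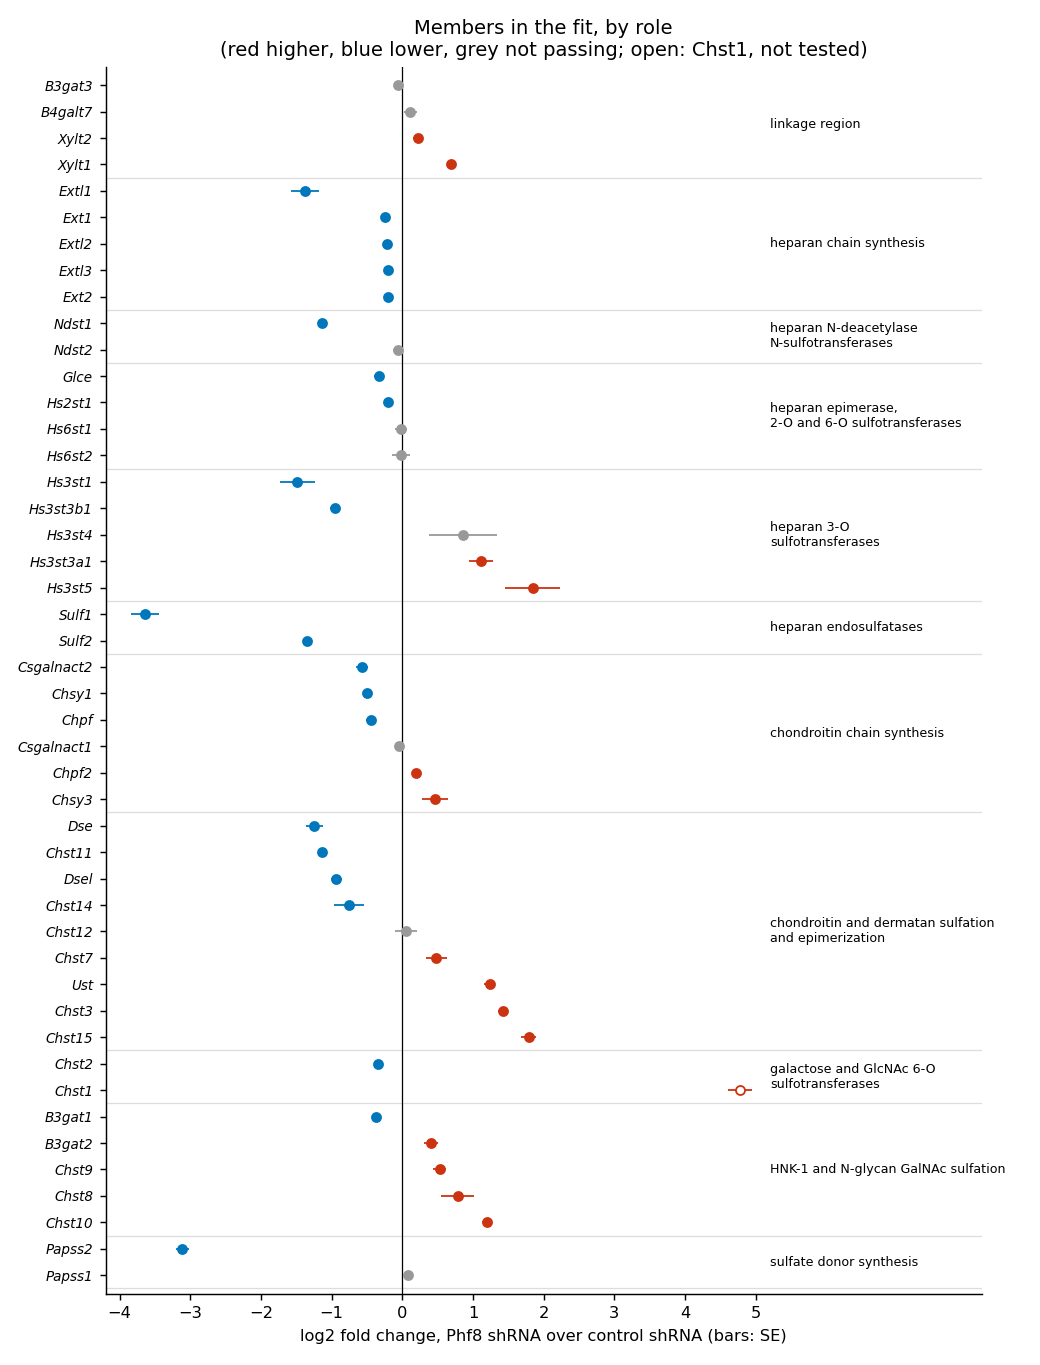
Log2 fold change of Phf8 shRNA over control shRNA with its SE for the 45 enzymes tested and Chst1, grouped by role, with red for those that rose, blue for those that fell, grey for those that did not pass and an open point for Chst1, which was not tested. Linkage and chain-building enzymes range from -1.38 for Extl1 to 0.69 for Xylt1, and the other enzymes from -3.64 for Sulf1 to 4.78 for Chst1.

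The first step, transfer of xylose to a core protein, is carried out by the xylosyltransferases Xylt1 and Xylt2. Xylt1 stood at 65.7 and 65.3 CPM in control and 104 and 108 CPM in Phf8 shRNA libraries, a log2 fold change of 0.69 ± 0.06 (SE, adjusted p = 7.9e-34). Both Phf8 shRNA libraries lay above both controls. Xylt2 rose by less (0.22 ± 0.08). That call was lost with the library size alone (adjusted p = 0.0609), in DESeq2 (0.086), without control replicate 2 (0.0872) and without Phf8 shRNA replicate 2 (0.0919). B4galt7, the galactosyltransferase that acts next, and B3gat3, the glucuronyltransferase that completes the linkage, did not pass (log2 fold changes 0.11 ± 0.09 and -0.06 ± 0.07). B3gat3 had the highest level of the 4 genes per kilobase in control libraries (10.6 RPKM) and Xylt1 in Phf8 shRNA libraries (10.99 RPKM against 10.2 for B3gat3).

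All 5 genes of heparan chain synthesis fell, beside 27.3% of all genes tested called lower. In 4 of them the fall was small, under the median absolute log2 fold change of 0.32 over all genes tested. None of these 4 calls remained with the biological coefficient of variation set to 0.2. Ext1 and Ext2, which form the polymerase complex, fell by 0.25 and 0.20 on the log2 scale, and Extl2 and Extl3, related transferases that act on the first sugars of the chain, fell by 0.22 and 0.20. Extl3 was the most abundant of the 5 per kilobase, at 21.3 RPKM in control and 18.6 RPKM in Phf8 shRNA libraries (135 and 123 CPM against 111 and 114 CPM). The calls of Ext2 and Extl3 were lost without control replicate 1 (adjusted p = 0.0932 and 0.0931), and that of Ext2 also with upper-quartile scaling (0.0612). Extl1, a further member of this gene family, was rare and fell most, from 3.17 and 2.79 CPM to 0.971 and 1.34 CPM (log2 fold change -1.38 ± 0.20 SE, adjusted p = 1.17e-11).

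Heparan sulfate is first modified by the NDST enzymes, which replace acetyl groups with sulfate and so open the chain to the later steps. Ndst1 (chromosome 18, 60684494 to 60748650) stood at 373 and 361 CPM in control and at 166 and 167 CPM in Phf8 shRNA libraries, a log2 fold change of -1.14 ± 0.06 (SE, adjusted p = 1.17e-84). Its level was lower in both Phf8 shRNA libraries than in either control. Ndst2 stayed at 26.2 and 25.7 CPM against 24.2 and 25.5 CPM and did not pass (adjusted p = 0.442). Ndst1 therefore went from 7.81 and 7.72 times the level of Ndst2 per kilobase to 3.78 and 3.60 times. Ndst3 and Ndst4 had at most 5 reads in a library and were not tested.

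The epimerase gene Glce and the 2-O-sulfotransferase gene Hs2st1, which act on the uronic acids of heparan sulfate, fell slightly, with log2 fold changes of -0.33 ± 0.07 and -0.20 ± 0.06. Hs2st1, the most abundant gene of this step at 9.95 RPKM in control and 8.66 RPKM in Phf8 shRNA libraries, had 80.3 and 83.1 CPM against 72.6 and 69.5 CPM. The 6-O-sulfotransferase genes Hs6st1 and Hs6st2 did not pass, at -0.02 ± 0.08 and -0.02 ± 0.13. Hs6st3 had 6 to 13 reads per library and was not tested.

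Both endosulfatase genes fell. Sulf1 and Sulf2 encode secreted enzymes that remove 6-O-sulfates from finished heparan sulfate outside the cell. Sulf2 (chromosome 2, 166073089 to 166155663) had the highest level per kilobase of all 52 enzymes and stood at 648 and 617 CPM in control and at 266 and 232 CPM in Phf8 shRNA libraries, a log2 fold change of -1.35 ± 0.06 (SE, adjusted p = 9.26e-110). Sulf1 (chromosome 1, 12692277 to 12861192) fell from 6.27 and 6.26 CPM to 0.578 and 0.409 CPM. Its reads numbered 527 in control and 40 in Phf8 shRNA libraries, a ratio of control to Phf8 shRNA of 12.5 after correction for depth, with a 95% exact binomial interval of 9.07 to 17.7, which covers counting error only (adjusted p = 1.56e-73). For neither gene did the groups overlap, which also held for 73.9% of all genes tested. Summed per kilobase, the endosulfatases stood at 31.0 and 33.0 times the 6-O-sulfotransferases in control and at 13.1 and 11.96 times in Phf8 shRNA libraries.

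The 3-O-sulfotransferases add the last and rarest sulfate of heparan sulfate, and their genes went in both directions. Hs3st3b1, the most abundant of the 6, fell from 28.0 and 28.6 CPM to 15.6 and 13.6 CPM (log2 fold change -0.95 ± 0.07 SE, adjusted p = 1.65e-37). Hs3st3a1, which lies on the same chromosome 11 on the other strand (64435332 to 64522841 against 63885792 to 63922290), rose from 1.64 and 1.66 CPM to 3.42 and 3.73 CPM (1.11 ± 0.17 SE, adjusted p = 9.1e-10). The pair encodes closely related enzymes, and 10.7% of the 50-base stretches of Hs3st3a1 transcripts also occur in Hs3st3b1, and 8.56% the other way. Reads could therefore be assigned between them. Hs3st3b1 had 1210 and 1171 reads in control against 71 and 68 for Hs3st3a1. Even a small part of the Hs3st3b1 reads could thus weigh on the Hs3st3a1 level, which was not tested. An annotated gene on the opposite strand also covers 32.9% of the exonic length of Hs3st3a1, while the sources used here do not say whether the counting used strand. Hs3st1, known for making the antithrombin-binding site, fell from 1.71 and 1.88 CPM to 0.532 and 0.763 CPM (-1.48 ± 0.25 SE, adjusted p = 1.5e-08). Hs3st5 rose at a low level, from 6 and 12 reads to 33 and 29 reads, a ratio after correction for depth of 3.63 (95% exact binomial interval 2.12 to 6.51). Its log2 fold change of 1.84 ± 0.39 was 2.46 without control replicate 2 and 1.39 without control replicate 1. Hs3st4 had 7 to 14 reads per library and did not pass (adjusted p = 0.126), and Hs3st2 had 0 to 7 reads and was not tested.

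Chondroitin chains are begun by Csgalnact1 and Csgalnact2 and extended by the synthases and polymerizing factors Chsy1, Chsy3, Chpf and Chpf2. Chsy1, the most abundant of the 6 per kilobase (11.5 RPKM in control and 8.16 RPKM in Phf8 shRNA libraries), fell from 47.3 and 48.8 CPM to 34.3 and 33.8 CPM. Its log2 fold change was -0.50 ± 0.06 (SE, adjusted p = 1.55e-15), close to those of Csgalnact2 (-0.57 ± 0.08) and Chpf (-0.45 ± 0.06), which also fell. Csgalnact1 did not pass (-0.05 ± 0.06). Chpf2 rose by 0.20 ± 0.06 and the rare Chsy3 by 0.46 ± 0.19. The Chpf2 call was lost in DESeq2 (adjusted p = 0.0557) and without control replicate 1 (0.137), and 44.1% of its exonic length overlaps Smarcd3 on the opposite strand, which itself rose (log2 fold change 0.49). The Chsy3 call was lost with the library size alone (0.0676), in DESeq2 (0.191), without either control replicate (0.09 and 0.157) and without Phf8 shRNA replicate 2 (0.0967).

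Transcripts of the main chondroitin 4-O- and 6-O-sulfotransferases moved in opposite directions. Chst11, which places sulfate on carbon 4 of N-acetylgalactosamine, stood at 59.9 and 57.3 CPM in control and 26.2 and 27.3 CPM in Phf8 shRNA libraries, a log2 fold change of -1.13 ± 0.06 (SE, adjusted p = 8.7e-75). Chst3, which places it on carbon 6 of the same sugar, moved the other way, from 15 and 14.4 CPM to 41.1 and 37.9 CPM (1.43 ± 0.07 SE, adjusted p = 1.73e-92). In both genes the groups were far apart. Of their relatives, Chst12, a further 4-O-sulfotransferase, did not pass (0.05 ± 0.15), and Chst7, a further 6-O-sulfotransferase, rose by 0.48 ± 0.15, a call that was lost in DESeq2 (adjusted p = 0.0728) and without control replicate 2 (0.088). Chst13, the third 4-O-sulfotransferase, had 0 reads in all 4 libraries, which allows up to 0.0694 to 0.0817 CPM in a library (3 reads).

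Summed per kilobase, the 4-O-sulfotransferase transcripts Chst11, Chst12 and Chst13 amounted to 12.3 and 11.5 RPKM in control and 5.91 and 6.50 RPKM in Phf8 shRNA libraries. The 6-O-sulfotransferase transcripts Chst3 and Chst7 amounted to 3.64 and 3.39 RPKM in control and 8.07 and 7.60 RPKM in Phf8 shRNA libraries. The ratio of 4-O to 6-O transcripts was 3.37 and 3.41 in control and 0.732 and 0.856 in Phf8 shRNA libraries, so the order of the sums was opposite in the groups. With 2 libraries against 2, an exact two-sided permutation test of such a ratio cannot go below p = 0.333, and none was run. The sulfation of the chains was not measured.

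**Figure D3:**
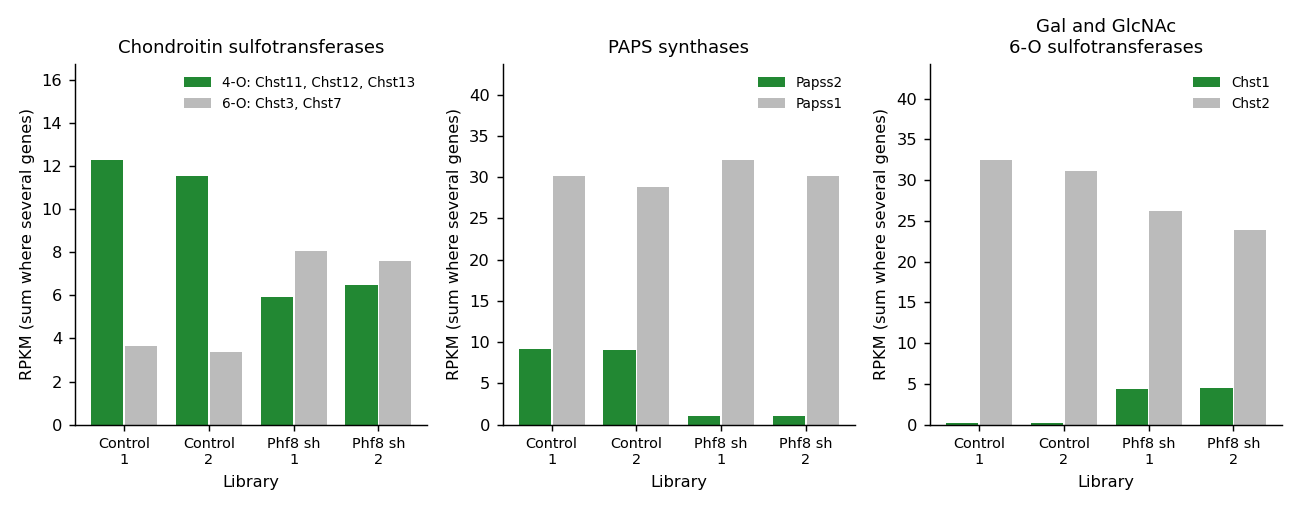
RPKM in each of the 4 libraries, with 2 controls on the left and 2 Phf8 shRNA libraries on the right of each panel, for the summed chondroitin 4-O and 6-O sulfotransferases, for the PAPS synthases and for Chst1 and Chst2. The 4-O sum exceeds the 6-O sum in control libraries and lies below it in Phf8 shRNA libraries, Papss2 falls to 1.05 and 1.06 RPKM beside a steady Papss1, and Chst1 reaches 4.32 and 4.48 RPKM.

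Genes of doubly sulfated chondroitin units, Chst15 and Ust, rose, and the dermatan sulfate genes Dse, Dsel and Chst14 fell. Chst15, which adds a second sulfate to 4-sulfated N-acetylgalactosamine and so makes chondroitin sulfate E, stood at 3.91 and 3.76 CPM in control and 13.1 and 13.4 CPM in Phf8 shRNA libraries (log2 fold change 1.79 ± 0.11 SE, adjusted p = 7.58e-63). A predicted gene on the opposite strand, Gm10584, overlaps 17.9% of its exonic length and had at most 3 reads in a library. Ust, which sulfates the uronic acid at carbon 2, rose from 11.1 and 11.2 CPM to 26.6 and 25.8 CPM (1.24 ± 0.08 SE, adjusted p = 1.72e-56). The epimerase gene Dse, which converts chondroitin to dermatan sulfate, fell from 8.99 and 8.95 CPM to 3.61 and 3.98 CPM (-1.25 ± 0.12 SE, adjusted p = 9.22e-26). Its relative Dsel fell by 0.93 ± 0.07 on the log2 scale, and Chst14, which sulfates dermatan units at carbon 4, fell by 0.75 ± 0.21. For each of these 5 genes both Phf8 shRNA libraries lay on the same side of both controls, which also held for 73.9% of all genes tested.

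Chst1 (chromosome 2, 92599707 to 92615250, plus strand), which sulfates galactose at carbon 6 in keratan sulfate and related glycans, was the gene that brought the family in. It had 21 and 15 reads in control and 501 and 441 reads in Phf8 shRNA libraries, or 0.485 and 0.367 CPM against 11.6 and 12.01 CPM. Its log2 fold change of 4.78 is the value by which the family was chosen. Chst2, which sulfates N-acetylglucosamine at carbon 6 in the same kind of chain, was far more abundant and fell from 238 and 228 CPM to 193 and 175 CPM (-0.34 ± 0.06 SE, adjusted p = 7.91e-09). Per kilobase Chst1 reached 0.165 and 0.188 times the level of Chst2 in Phf8 shRNA libraries, against 0.00558 and 0.0044 times in control. Chst5, the third gene of this group, had at most 2 reads in a library.

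**Figure D4:**
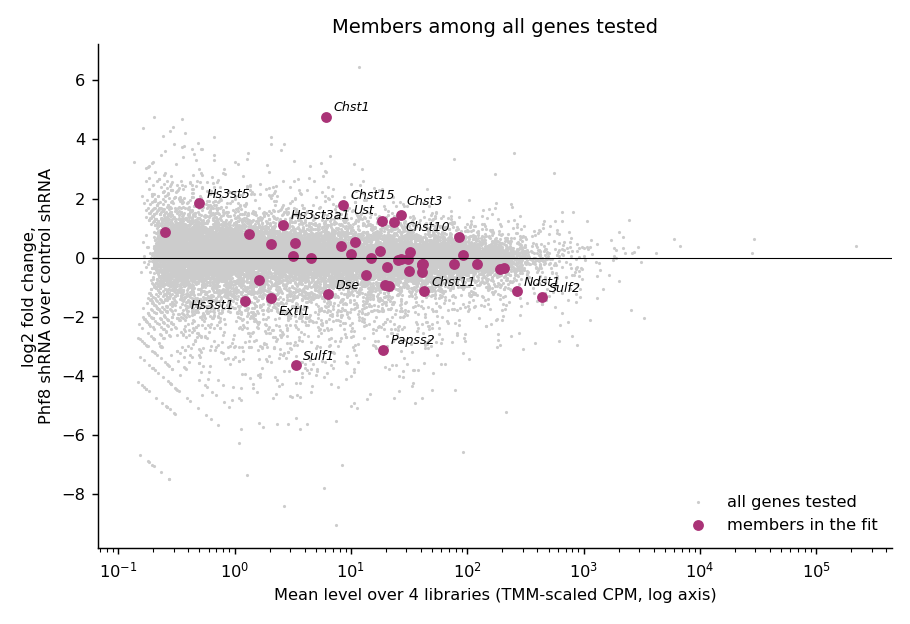
Log2 fold change of Phf8 shRNA over control shRNA against the mean level over the 4 libraries (TMM-scaled CPM, log axis) for all 21042 genes tested, in grey, with the 45 enzymes tested and Chst1 in purple. Chst1 lies near the upper edge of the cloud at 4.78, Papss2 (-3.11) and Sulf1 (-3.64) lie toward its lower edge, and most other enzymes lie within it.

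The HNK-1 epitope, a sulfated glucuronic acid on neural adhesion molecules, is made by the glucuronyltransferases B3gat1 and B3gat2 and the sulfotransferase Chst10. Chst10 (chromosome 1, 38863867 to 38898161) rose from 14.6 and 13.9 CPM to 32.7 and 33.0 CPM (log2 fold change 1.20 ± 0.07 SE, adjusted p = 1.32e-61). B3gat1, the most abundant gene of this set at 43.8 RPKM in control and 33.8 RPKM in Phf8 shRNA libraries, fell from 224 and 210 CPM to 170 and 165 CPM (-0.37 ± 0.06 SE, adjusted p = 1.37e-10). B3gat2 rose by 0.41 ± 0.10, and 33.5% of its exonic length overlaps Smap1 on the opposite strand, which did not pass (0.09). The B3gat1 level was thus 36.9 and 36.5 times that of Chst10 per kilobase in control and 12.5 and 12.1 times in Phf8 shRNA libraries. Chst8 and Chst9, which sulfate N-acetylgalactosamine on N-glycans, rose by 0.79 ± 0.23 and 0.53 ± 0.09. The Chst8 call rests on Phf8 shRNA replicate 2 (2.13 CPM against 1.249 CPM in replicate 1) and was lost without it (log2 fold change 0.38, adjusted p = 0.29) and in DESeq2 (0.0754).

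All of these sulfotransferases draw on PAPS, which is made by the bifunctional synthases Papss1 and Papss2. Papss2 (chromosome 19, 32595790 to 32667187) stood at 34.1 and 33.9 CPM in control and 3.91 and 3.95 CPM in Phf8 shRNA libraries, a log2 fold change of -3.11 ± 0.09 (SE, adjusted p = 1.12e-256). After Sulf1 this was the largest fall of the 45 enzymes. Papss1 stood at 92.0 and 87.9 CPM against 97.9 and 92.0 CPM and did not pass (0.08 ± 0.06, adjusted p = 0.239), though it did with upper-quartile scaling (0.16, adjusted p = 0.00275). Papss2 therefore held 23.4% and 24.0% of the summed RPKM of both synthases in control and 3.17% and 3.40% in Phf8 shRNA libraries.

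Genes on either side of these steps were also followed, in 4 lists. Their counts stand beside 24.8% of all genes tested called higher and 27.3% lower, and 60.4% of protein-coding ones called either way. Of 21 genes of sugar precursors and of sulfate and donor transport, all tested, 2 rose and 12 fell. Their median log2 fold change was -0.27, beside 0.01 for all genes tested and -0.04 for the protein-coding ones. The sulfate transporter gene Slc26a2 fell from 81.3 and 86.6 CPM to 24.1 and 23.3 CPM (-1.82 ± 0.06 SE, adjusted p = 2.76e-193), so both the uptake of sulfate and its activation had a gene among the lower ones. Gfpt2, which starts the hexosamine pathway, fell 2.997-fold, while Gfpt1 of the same step rose 1.26-fold. Slc26a11, of the same transporter family as Slc26a2, rose 1.24-fold. Of 20 genes of chain degradation, 18 were tested, of which 13 fell and 1 rose (median -0.37). Arsb, the lysosomal sulfatase for 4-sulfated N-acetylgalactosamine, fell from 177 and 167 CPM to 55.0 and 53.2 CPM (-1.67 ± 0.06 SE). Hexa fell 2.05-fold and Sumf1, which activates sulfatases, 1.82-fold, whereas Arsg, a lysosomal sulfatase of heparan sulfate, rose 2.00-fold.

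Of 19 further linkage, keratan backbone and sulfation genes, 12 were tested, of which 3 rose and 7 fell (median -0.40). The shares of all genes tested, 24.8% higher and 27.3% lower, again stand beside this list and the next. Fam20b, the kinase that phosphorylates the linkage xylose, fell 1.47-fold, the galactosyltransferase gene B4galt1 1.93-fold and the tyrosine sulfotransferase gene Tpst1 1.59-fold, and Gal3st3, a galactose 3-O-sulfotransferase, rose 2.09-fold. The count of 3 higher genes in this list was 1 in DESeq2, with the library size alone and with the biological coefficient of variation set to 0.2. It was 2 with no low-count filter, and it was also lower when 1 library was left out. Of 34 proteoglycan core protein genes, 31 were tested, of which 11 rose and 11 fell (median 0.02). The heparan sulfate carrier Sdc4 fell 4.29-fold and Prelp, a small leucine-rich matrix protein, 2.88-fold, while the chondroitin sulfate carrier Cspg5 rose 2.63-fold from 74.6 and 73.3 CPM to 195 and 194 CPM.

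**Figure D5:**
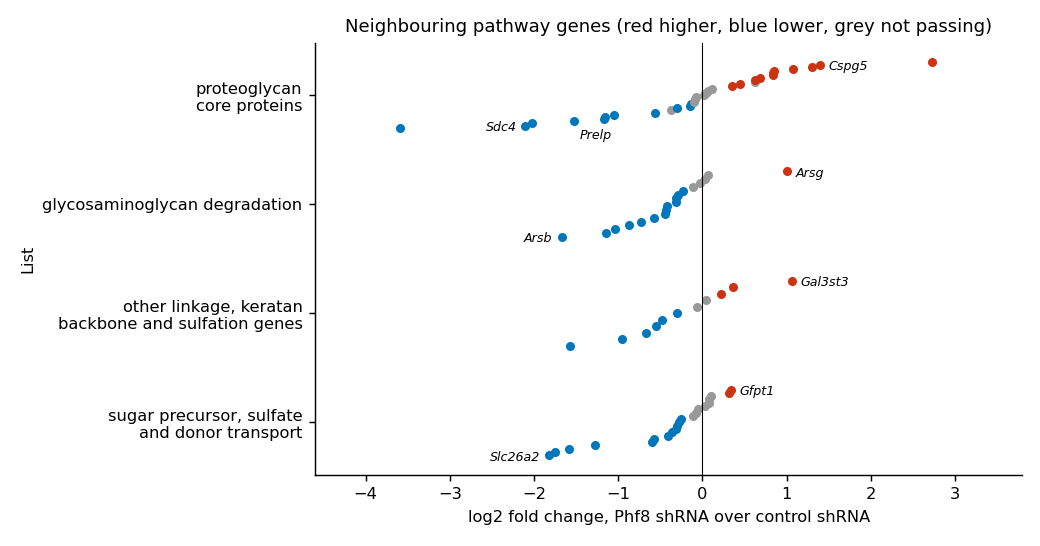
Log2 fold change of Phf8 shRNA over control shRNA for the tested genes of the 4 lists of neighbouring pathway genes, with red for those that rose, blue for those that fell and grey for those that did not pass, spread vertically by rank. Precursor, transport and degradation genes lie mostly below 0 and core protein genes on both sides, and Gcnt1, which had 39 control and no Phf8 shRNA reads (at least 12.35-fold lower, for 3 reads over the group), is left out.

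Markers of other cell types moved beside these enzymes. Marker counts stand beside 24.8% of all genes tested called higher and 27.3% lower. Of 14 oligodendrocyte lineage markers, 13 were tested and 12 of them rose, and their summed level was 756 to 803 CPM in control and 1297 to 1344 CPM in Phf8 shRNA libraries. Of 12 neuron markers, 8 were tested and 7 rose, with sums of 1156 to 1196 CPM and 1896 to 1901 CPM, Slc17a7 being at 0 in control and Slc17a6 at 0 in Phf8 shRNA libraries. Most of the neuron sum was Map2, at 902 and 936 CPM in control and 1390 and 1379 CPM in Phf8 shRNA libraries. All 10 astrocyte markers were tested, of which 3 rose and 6 fell (9602 to 9854 CPM and 6560 to 7303 CPM). Within that sum Gfap fell from 4079 and 3863 CPM to 1319 and 1024 CPM, whereas Slc1a2 rose from 135.5 and 135.1 CPM to 968 and 982 CPM. Of 8 neural progenitor markers 4 rose and 3 fell (1844 to 1877 CPM and 1691 to 1853 CPM). Nes fell from 1022 and 1062 CPM to 217 and 213 CPM, and Fabp7 rose from 421 and 416 CPM to 1281 and 1138 CPM. Such sums weigh the abundant markers most. Microglia and macrophage markers summed to 8.92 to 9.63 CPM and 6.08 to 6.18 CPM, with 2 of 5 tested lower and Trem2 at 0 in all libraries. Endothelial, mural and fibroblast markers summed to 28.1 to 28.2 CPM and 26.0 to 26.7 CPM, with 1 of 8 tested higher, 4 lower and Cdh5 at 0 in all libraries. The share of reads from the mitochondrial genome was 22.61% and 23.95% in control and 29.55% and 30.03% in Phf8 shRNA libraries. The part of these differences in the enzyme values was not tested, and in bulk RNA fewer cells of a type and less RNA per cell cannot be told apart.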

How the data were processed

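Expression was measured by RNA sequencing in 2 control shRNA and 2 Phf8 shRNA libraries, grouped by their titles. Per the labels' protocols, libraries came from a stranded total RNA kit after ribosomal RNA depletion. Per the submitters' processing notes, HISAT2, HTSeq and DESeq2 were named with the mm10 build, with no version. The sources used here name no strand setting or annotation release. The deposited files hold whole-number read counts per gene, not normalized, and their coordinates are printed.

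Counts of all 4 libraries were fitted with edgeR 4.0.16 (quasi-likelihood F test, two-sided, filterByExpr, TMM, no covariates) in R 4.3.3, with Benjamini-Hochberg adjustment over all 21042 genes tested and a threshold of 0.05. TMM assumes that most genes do not differ, whereas 52.1% were called. The fit was tested on simulated data. These were drawn at the fitted common spread, with few genes changed and as many up as down. They therefore cannot test the TMM assumption or the spread taken between replicates. SE is the log2 fold change divided by the root of its F statistic. Exon lengths and overlaps came from GENCODE M21, symbols from its identifiers (55154 of 55421 matched), and Bpnt2 was found as Impad1.

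Values are given in every library for Chst1, for enzymes called with at least a 2-fold change at a mean of at least 1 CPM in groups that do not overlap, and for the most abundant enzyme of each role. From each pathway list up to 3 called genes with the smallest p and up to 2 of the opposite direction were named, except 1 that is not reported here. The enzymes and lists were chosen with earlier results of these data known. Alternatives were other scalings, DESeq2 1.42.0, limma-voom (limma 3.58.1), other filters, a set biological coefficient of variation, the replicate block, leaving out abundant genes and leaving out each library.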

Additional observations from a re-analysis of the deposited data

How the results depend on the processing

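Among the log2 fold changes of the 45 tested enzymes over all alternatives, 578 kept their direction and their side of the threshold, 38 lost the call, 1 gained it and 13 reversed; no called enzyme reversed. With upper-quartile scaling the median of the enzymes was 0.0171, and the uncalled B3gat3 (0.0247), Ndst2 (0.0171), Hs6st1 (0.0649), Hs6st2 (0.0672) and Csgalnact1 (0.0351) turned positive; this scaling moved the median of all genes to 0.0964. Without 1 library, the log2 fold change ranged from -0.1415 to 0.0295 for B3gat3, -0.1078 to 0.0774 for Hs6st1, -0.1239 to 0.1025 for Hs6st2, -0.0962 to 0.0029 for Csgalnact1 and -0.1499 to 0.2541 for Chst12. Enzymes called higher then numbered 11 to 14, those called lower 20 to 22, all genes called 9053 to 10235, and higher genes among the other linkage, keratan and sulfation genes 1 to 2. DESeq2 called 9 enzymes higher, and 16.6% of all genes tested, against 24.8% in the main fit. DESeq2 and the library size alone each called 1 of these other linkage genes higher. With the library size alone, 20.6% of all genes tested were called higher. The reason for these lower counts was not tested. With the coefficient of variation set to 0.2, 3305 genes were called (1262 higher, 2043 lower), 6 enzymes were higher and 10 lower, and Phf8 (-0.2967) was no longer called (adjusted p = 0.639). The lists then had 0 precursor and transport genes higher and 4 lower, 1 other linkage gene higher and 3 lower, 4 degradation genes lower, and 5 core proteins higher and 7 lower; a larger assumed spread is how this alternative is built. Alternatives for the 4 lists were added after the data were seen. Same-numbered libraries of the groups did not deviate together (r = -0.001018 across genes), so the numbers were not taken as pairs; the replicate block gave 14 enzymes higher, 22 lower and 10929 genes in all. The filter on low counts kept 6 enzymes out of the test, each with at most 13 reads in a library. Protein identity was not run.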
